A study of Brassica napus with 6 samples.

Results

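The transcripts described here are those of young rapeseed floral buds that were lower after a spray with amidosulfuron and were still measurable. They were chosen on the measured values themselves. The level of a transcript was its count divided by the tabulated total of its library, times 1000000 (CPM). A transcript was taken when the upper quartile of its 6 counts was at least 10, its mean level after amidosulfuron was at least 1 CPM, its mean control level was at least 3 times as high, and its lowest control value lay above its highest treated value. These conditions were met by 142 of the 24958 transcripts past the count filter (0.569%), out of 65535 tabulated. Each condition on its own was wider. Every control value lay above every treated value in 8.38% of the transcripts past the filter. The mean control level was at least 3 times the treated one in 1.67%. The mirrored conditions for a rise were met by 131 transcripts (0.525%). Because the choice used the comparison of the groups, the difference between groups is given below as a description, without a test.

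Buds came from Brassica napus cultivar Qinyou3, sown in the field, vernalized there and moved to a greenhouse. Bolting plants were sprayed with amidosulfuron at 0.3 mg/L or, as controls, with water only, and buds were collected while pollen mother cells were in meiosis. Each group had 3 biological replicates, and the labels do not say whether buds of several plants were pooled. Libraries of total RNA were made with a tag profiling kit and sequenced from a single end. The libraries held 1942711 to 3596321 tabulated counts, so 1 count stood for 0.278 to 0.515 CPM. Deviations of control 3 and amidosulfuron 2 from their group means correlated at 0.360 across all transcripts past the filter (log2 scale), the highest value among the 9 pairs of a control with a treated library. Values without each library, and without these 2, are given with the library profiles.

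Amidosulfuron belongs to the sulfonylureas, herbicides that block acetolactate synthase, an enzyme of branched-chain amino acid synthesis in plastids. Low doses of such compounds are used on rapeseed as male gametocides, which stop the plant from making functional pollen. In a bud at meiosis the pollen mother cells sit inside the tapetum, a secretory cell layer that feeds them and later supplies parts of the pollen wall. Brassica napus is an allotetraploid that carries an A genome from Brassica rapa and a C genome from Brassica oleracea, so copies from both genomes can match the same Brassica rapa gene.

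Each transcript carries an identifier of the earlier assembly and, where the authors found a match, of a Brassica rapa gene. The tables do not pair these with symbols, and 0 of the 20674 gene identifiers were found in the RefSeq table of Brassica napus, so no role is given to any gene and the marker genes of the bud's cell types could not be read. Whole buds were measured, so fewer cells of a type and less RNA per cell cannot be told apart. A match to a gene was present for 126 of the 142 transcripts, which came from 103 genes, and 16 had none (11.3%, against 11.4% of all transcripts past the filter). The 142 came from 130 assembly components, groups of transcripts that the assembler derived from the same set of overlapping reads.

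The lowered transcripts spanned a wide range of levels. Their mean control level ran from 3.90 to 2975 CPM with a median of 17.0, and their mean treated level from 1.01 to 852 CPM with a median of 2.85. The median transcript kept 23.7% of its control level (quartiles 14.7% and 29.9%), while the median over all transcripts past the filter was 96.2%. The ratio of control to treated mean was between 3 and 4 for 65 transcripts, between 4 and 8 for 52, between 8 and 16 for 18 and above 16 for 7. Per length, in the authors' RPKM (reads scaled by transcript length and by mapped reads), the median control level was 6.89, against 5.22 for all transcripts past the filter. The treated floor and the ratio together set a minimum control level, so nothing is read from this difference. The median length of the lowered transcripts was 875 bp, against 899 bp.

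**Figure D1:**
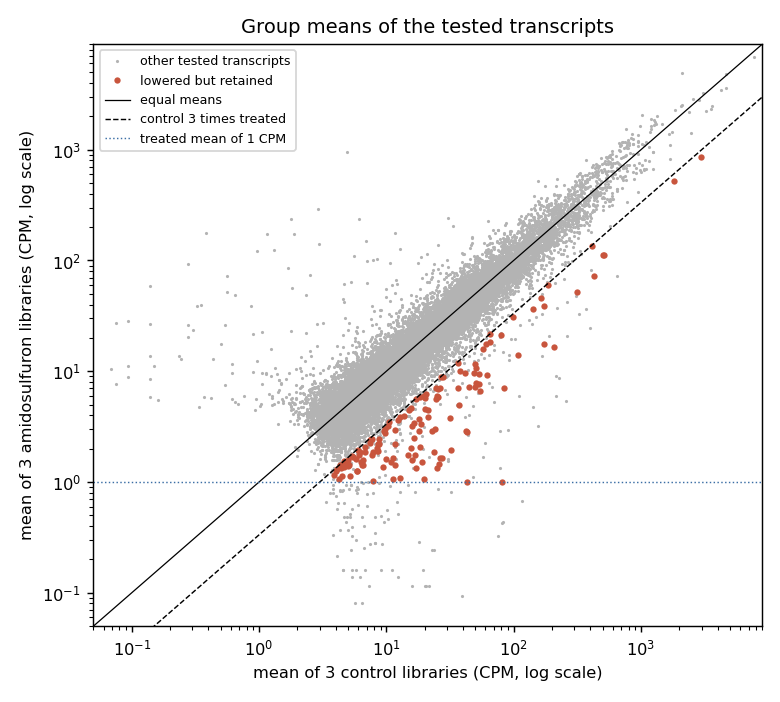
Mean level in the 3 amidosulfuron libraries against the mean in the 3 control libraries, in CPM on log axes, for each transcript past the count filter with both means above 0. The 142 lowered transcripts (red) lie under the line of a 3-fold difference and above 1 CPM after treatment, and reach from 3.90 to 2975 CPM in the controls.

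At the edges of the conditions the values were continuous. The ratio was 3.01 for comp28224_c0_seq1 and comp52020_c1_seq2, just inside, and 2.996 for comp18955_c0_seq1 and 2.99 for comp56885_c1_seq2, just outside. The treated mean was 1.01 CPM for comp53654_c0_seq2 and comp50189_c0_seq1, just inside, and 0.934 CPM for comp54508_c0_seq2 and 0.925 CPM for comp50786_c0_seq1, just outside. The conditions other than the treated floor were met by 58 further transcripts.

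Many lowered transcripts rested on few treated counts. The 3 treated libraries together held 6 to 5285 counts of a transcript, with a median of 19, and fewer than 10 for 20 transcripts. In 7 transcripts a treated library was at 0, which allows up to 1.54 CPM at the depth of amidosulfuron 1, the library where all 7 zeros lay (3 counts, counting error only).

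Together the 142 transcripts held 14058, 9054 and 9566 CPM in controls 1 to 3 and 3953, 1285 and 2643 CPM in amidosulfuron 1 to 3. The group means were 10893 CPM ± 2754 and 2627 CPM ± 1334 (SD, n = 3), or 1.09% and 0.263% of the tabulated counts. The 2 lowered transcripts of Brara.C01441 alone made up 4802 CPM ± 2164 of the control sum and 1368 CPM ± 1080 of the treated sum (SD, n = 3). Without them the sums were 6091 CPM ± 639 and 1259 CPM ± 298 (SD, n = 3), with 5485 to 6759 CPM in the control libraries and 915 to 1438 CPM in the treated ones. Amidosulfuron 2 had the lowest sum with and without this gene.

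**Figure D2:**
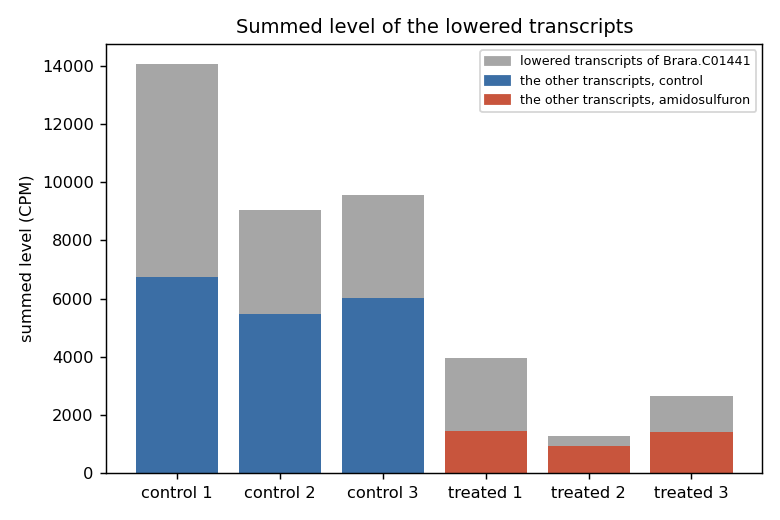
Summed level of the 142 lowered transcripts in each library, in CPM from a baseline of 0, with the 2 lowered transcripts of Brara.C01441 in grey and the other 140 in blue (control) and red (amidosulfuron). The sums are 9054 to 14058 CPM in the controls and 1285 to 3953 CPM after amidosulfuron, and the treated libraries differ most in the grey part.

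The most abundant lowered transcripts per length matched Brara.C01441. The transcript comp45039_c0_seq1, 472 bp long, had 2638, 1507 and 1336 CPM in controls 1 to 3 and 963, 121 and 466 CPM in amidosulfuron 1 to 3. All treated values lay under all control values, but amidosulfuron 1 came within 1.39 times of control 3, while amidosulfuron 2 was the lowest by far. Its mean went from 1292 RPKM ± 540 to 341 RPKM ± 267 (SD, n = 3). The transcript comp54633_c0_seq3, 872 bp long and of another component, followed the same libraries with 4662, 2062 and 2200 CPM in the controls and 1551, 250 and 754 CPM after treatment. The gene's other 2 tabulated transcripts missed the ratio, at 2.93 and 2.80. The sum over the gene went from 5710 CPM ± 2364 to 1688 CPM ± 1327 (SD, n = 3), a ratio of 3.38. Sums over a gene, here and below, cover its tabulated transcripts only, and transcripts beyond these were not seen.

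Brara.F03734 and Brara.B01666 came next in level per length. Neither labels nor headers say whether tags came from a fixed site of each transcript, so ranks per length are uncertain. By mean control CPM the order differed. It was 511 for comp51810_c0_seq1 of Brara.B01666, 431 for comp57483_c0_seq1 of Brara.B02214 and 415 for comp42969_c0_seq1 of Brara.F03734. The transcript comp42969_c0_seq1 of Brara.F03734 had 550, 480 and 217 CPM in the controls and 198, 27.7 and 182 CPM after amidosulfuron. Its groups barely separated, with control 3 only 1.1 times as high as amidosulfuron 1. Its mean went from 239 RPKM ± 107 to 73.7 RPKM ± 50.9 (SD, n = 3).

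All 3 tabulated transcripts of Brara.B01666 were among the lowered ones. The shortest, comp51810_c0_seq2 of 448 bp, had 507, 223 and 212 CPM in the controls and 88.1, 15.8 and 50.7 CPM after amidosulfuron, a ratio of 6.09. The other two, comp51810_c0_seq1 and comp49575_c0_seq2, came from different components and yet differed by at most 1.86% in count in any library. Their ratios were 4.58 and 4.52, and their separate values are uncertain, because near-identical transcripts can share reads. The sum over these 3 transcripts went from 1331 CPM ± 585 to 275 CPM ± 138 (SD, n = 3). Each of them was highest in control 1 and lowest in amidosulfuron 2.

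Brara.E01404 also had all of its 3 tabulated transcripts among the lowered ones, from 3 components. The transcript comp51270_c1_seq1 had 247, 198 and 73.9 CPM in the controls and 44.0, 9.0 and 63.2 CPM after amidosulfuron, a ratio of 4.47. The transcripts comp52020_c0_seq2 and comp52020_c1_seq4 had lower levels and larger ratios, 7.51 and 18.6. For comp52020_c1_seq4 the controls had 18.4, 33.0 and 7.94 CPM and the treated libraries 2.21, 0.105 and 0.873 CPM. Its 6 treated counts set the size of the ratio (pooled ratio 22.1, exact 95% interval 9.94 to 61.2, counting error only). All 3 transcripts of the component comp52020_c1 past the filter were lowered although each matched another gene, with ratios of 11.9 (Brara.D00670), 3.01 (Brara.H00694) and 18.6 (Brara.E01404). The sum over the 3 transcripts of Brara.E01404 went from 230 CPM ± 114 to 44.7 CPM ± 31.3 (SD, n = 3).

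Brara.I04968 was the last gene with 3 lowered transcripts, and here the levels were low. The transcript comp54250_c0_seq9 had 26.2, 17.9 and 39.0 CPM in the controls and 14.7, 3.80 and 7.91 CPM after amidosulfuron. The other two, comp53419_c0_seq6 and comp37524_c0_seq2, averaged 4.97 and 4.98 CPM in the controls and 1.40 and 1.59 CPM after treatment, with 9 and 10 treated counts in all. The sum over the gene went from 37.7 CPM ± 13.2 to 11.8 CPM ± 6.84 (SD, n = 3), with control 3 highest and amidosulfuron 2 lowest.

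The largest ratios came from transcripts close to the treated floor. The transcript comp50189_c0_seq1 of Brara.B03426, 657 bp long, had 6.70, 130 and 106 CPM in the controls and 0.515, 2.02 and 0.485 CPM after amidosulfuron. The groups were apart, yet control 1 was 19.4 times lower than control 2. Its ratio was 80.3, and on pooled counts (569 against 8) it was 59.4 with an exact 95% interval of 29.9 to 138. This interval covers counting error only and leaves out the spread between libraries. The gene's other 3 transcripts past the filter, comp50189_c0_seq3, comp50189_c1_seq2 and comp50189_c1_seq3, averaged 116, 39.2 and 81.2 CPM in the controls and lay under the floor after treatment, and among the controls each was lowest in control 1. The transcript comp53654_c0_seq2 of Brara.H01670 had 9.73, 26.6 and 93.2 CPM in the controls and 0.515, 1.05 and 1.46 CPM after amidosulfuron, a ratio of 42.9. Here control 3 held most of the control signal, and the lowest control was still 6.69 times the highest treated value, the widest gap of all 142. Over the 142 this gap had a median of 1.54 times, was under 1.2 times in 33 and at least 2 times in 34. The transcript comp54689_c1_seq1 of Brara.G01996 had 28.1, 33.4 and 13.9 CPM against 0.257, 0.872 and 2.91 CPM, a ratio of 18.7, while comp54689_c3_seq1 of that gene had a ratio of 1.70 and the sum over the gene one of 2.74.

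**Figure D3:**
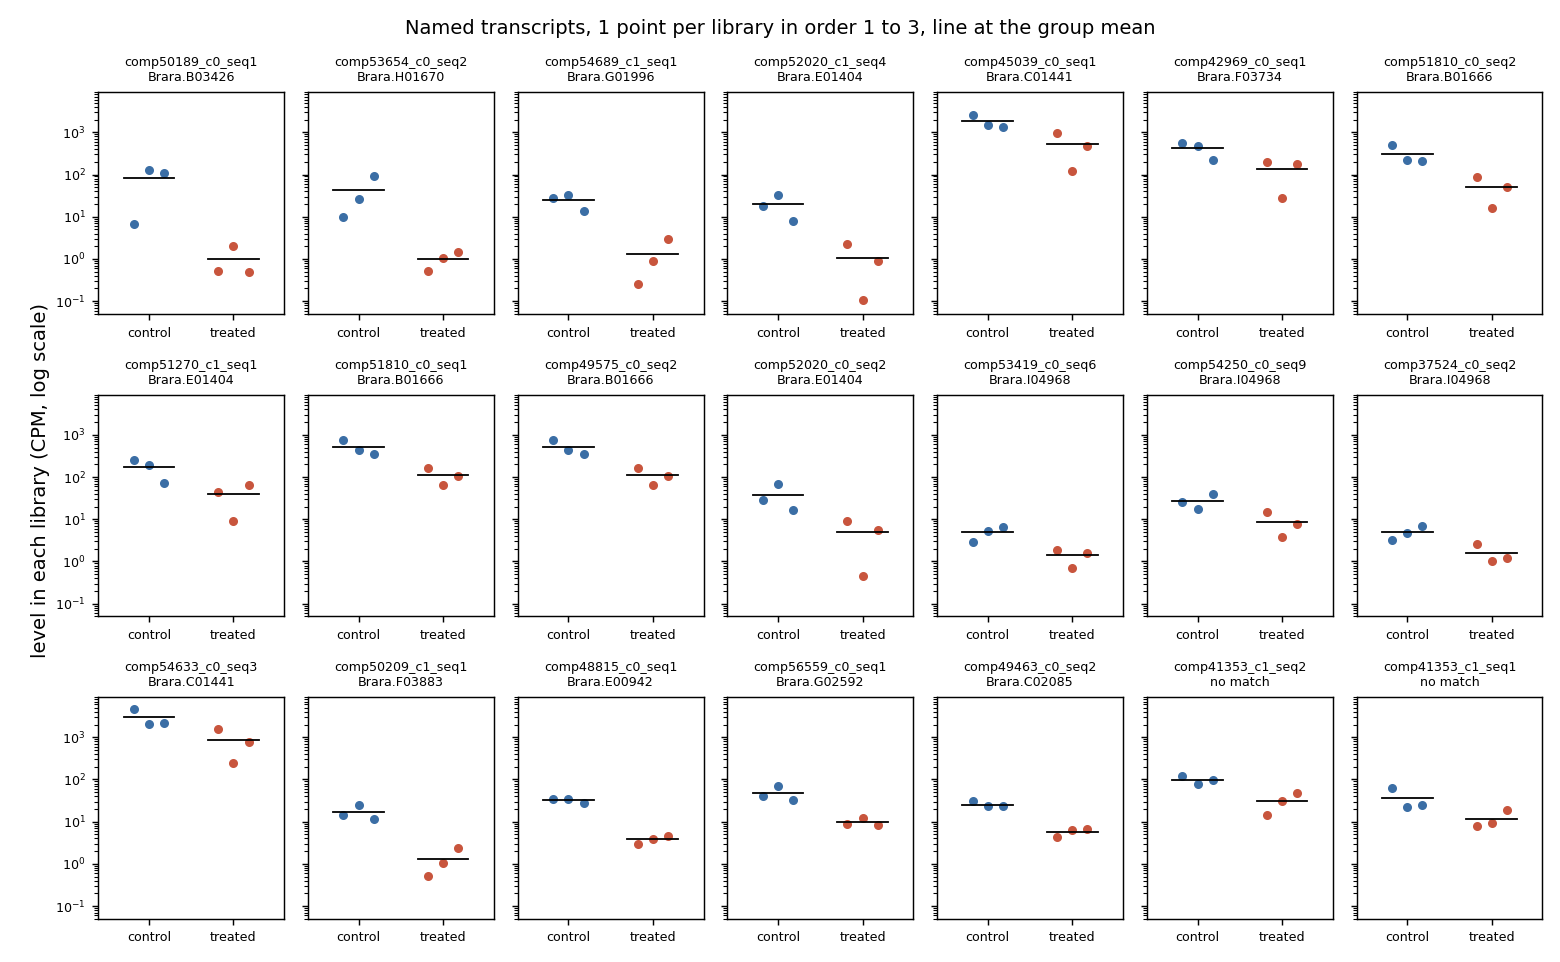
Level of 21 lowered transcripts in each library, in CPM on a shared log axis, with control libraries in blue and amidosulfuron libraries in red, each in the order of replicates 1 to 3, and a line at each group mean. No treated point reaches a control point, the largest spread among controls is that of comp50189_c0_seq1 (19.4 times), and comp48815_c0_seq1 has the tightest controls (1.24 times).

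The transcript comp48815_c0_seq1 of Brara.E00942, 661 bp long, had 34.2, 33.8 and 27.5 CPM in the controls and 2.99, 3.87 and 4.61 CPM after amidosulfuron. Its means were 31.8 CPM ± 3.77 and 3.82 CPM ± 0.812 (SD, n = 3), a ratio of 8.33. The other transcript of this gene past the filter, comp54330_c0_seq3, had a ratio of 1.27, so that the sum over the gene went only from 59.6 CPM ± 2.11 to 26.2 CPM ± 11 (SD, n = 3). The transcript comp49463_c0_seq2 of Brara.C02085 had 30.2, 23.0 and 23.4 CPM against 4.38, 6.28 and 6.79 CPM, and both tabulated transcripts of this gene were lowered (summed ratio 4.29). The transcript comp56559_c0_seq1, the only tabulated one of Brara.G02592, had 40.6, 71.2 and 33.5 CPM against 8.75, 12.2 and 8.25 CPM. The transcript comp50209_c1_seq1, the only tabulated one of Brara.F03883, had 14.5, 25 and 11.4 CPM against 0.515, 1.05 and 2.43 CPM, a ratio of 12.8.

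These 4 transcripts were also the ones of the 142 that edgeR's quasi-likelihood test called lower at a Benjamini-Hochberg adjusted p under 0.05, where 0.0321% of all 24958 transcripts were called lower. Since the same contrast chose the transcripts, nothing is read from this count; all 142 had an unadjusted p under 0.05, as did 5.38% of all transcripts in the lower direction. Leaving out 1 library, edgeR called 0 of the 142 without control 2 (0 of all transcripts), 1 without amidosulfuron 1 or amidosulfuron 3 (1 of all in each), 3 without control 1 (12 of all), 3 without control 3 (8 of all) and 8 without amidosulfuron 2 (16 of all). Without control 2, 133 of the 142 and 1252 of all transcripts were lower at an unadjusted p under 0.05. DESeq2 called 60 of the 142 (0.465% of all transcripts), edgeR with the replicate number as a block called 17 (0.176%), and limma-voom called 0 (0% of all transcripts, with 109 of the 142 and 974 of all transcripts lower at an unadjusted p under 0.05). At the thresholds of the study's design text, an unadjusted p of at most 0.05 and a log2 fold of at least 1, edgeR listed all 142, where 3.01% of all transcripts were listed as lower.

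Of the 16 lowered transcripts without a match, the most abundant per length belonged to a single component. The transcript comp41353_c1_seq2, 255 bp long, had 120, 79.1 and 95.7 CPM in the controls and 14.7, 30.7 and 47.0 CPM after amidosulfuron. The transcript comp41353_c1_seq1, 276 bp long, had 62.1, 22.8 and 24.8 CPM against 7.98, 9.07 and 18.4 CPM. In both, amidosulfuron 3 was the highest treated library.

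The control libraries of the lowered transcripts were less even than those of transcripts in general. The highest control value was 2.65 times the lowest at the median (quartiles 2.11 and 4.20), against 1.66 times over all transcripts past the filter. The conditions used these same control values, and a single high control raises the ratio of means, so nothing is read from this comparison. Among the 142, 33 had controls within a factor of 2 and 28 had controls at least 5 times apart. A single control library held over 66.7% of the summed control level in 17 transcripts, and that library was control 3 in 13 of them. With medians of the 3 libraries in place of means, 102 of the 142 kept a ratio of at least 3, the median ratio was 3.90, and 7 had a ratio under 2.

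The order of the libraries within a group differed between lowered transcripts. The highest control was control 1 in 63 of them, control 2 in 35 and control 3 in 44, and the lowest treated library was amidosulfuron 1 in 47, amidosulfuron 2 in 65 and amidosulfuron 3 in 30. For control 3 and amidosulfuron 2 all combinations occurred. In 32 lowered transcripts (22.5%) both were the lowest library of their group, which held for 14.0% of all transcripts past the filter. These 32 included all lowered transcripts of Brara.B01666, Brara.E01404 and Brara.F03734 and the shorter one of Brara.C01441. Their median levels were 38.7, 33.6 and 12.6 CPM in controls 1 to 3 and 6.25, 1.71 and 5.94 CPM in amidosulfuron 1 to 3. In 22 lowered transcripts (15.5%) control 3 was the highest control and amidosulfuron 2 the lowest treated library, against 7.23% of all transcripts, and in 10 (7.04%) it was the reverse, against 11.6%. In 15 lowered transcripts (10.6%) both were the highest, against 16.7% of all transcripts. Since the conditions compare low treated with high control values, nothing is read from these shares. In the 15 the medians were 6.95, 7.66 and 64.2 CPM in the controls and 2.57, 3.84 and 1.94 CPM after amidosulfuron, so that control 3 carried most of the control signal.

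Examples in which both were the highest, picked after their values were seen, were comp40822_c0_seq1 of Brara.D01937 and comp58841_c0_seq2 of Brara.C04403. The former had 72.4, 74.4 and 472 CPM in the controls and 10.3, 27.2 and 11.6 CPM after amidosulfuron, and its groups were apart by 2.66 times at the nearest values. The latter had 4.02, 7.03 and 117 CPM against 2.52, 4.01 and 1.94 CPM, so that control 1 and amidosulfuron 2 were nearly equal and control 3 alone set the ratio of 15.2. Over the 142, deviations from the group mean correlated at 0.325 between control 3 and amidosulfuron 2 (log2 scale, across transcripts, which share libraries and reads), close to the value over all transcripts given above. The conditions were also applied with libraries left out. Without control 1 they were met by 150 transcripts, of which 87 were among the 142, the fewest for any single library. Without control 2 they were met by 197 (113 of the 142) and without control 3 by 346 (104). Without amidosulfuron 1, 2 or 3 they were met by 216 (114), 263 (107) and 192 (113). Without both control 3 and amidosulfuron 2 they were met by 573 (99). Fewer libraries make it easier to meet the condition of no overlap.

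**Figure D4:**
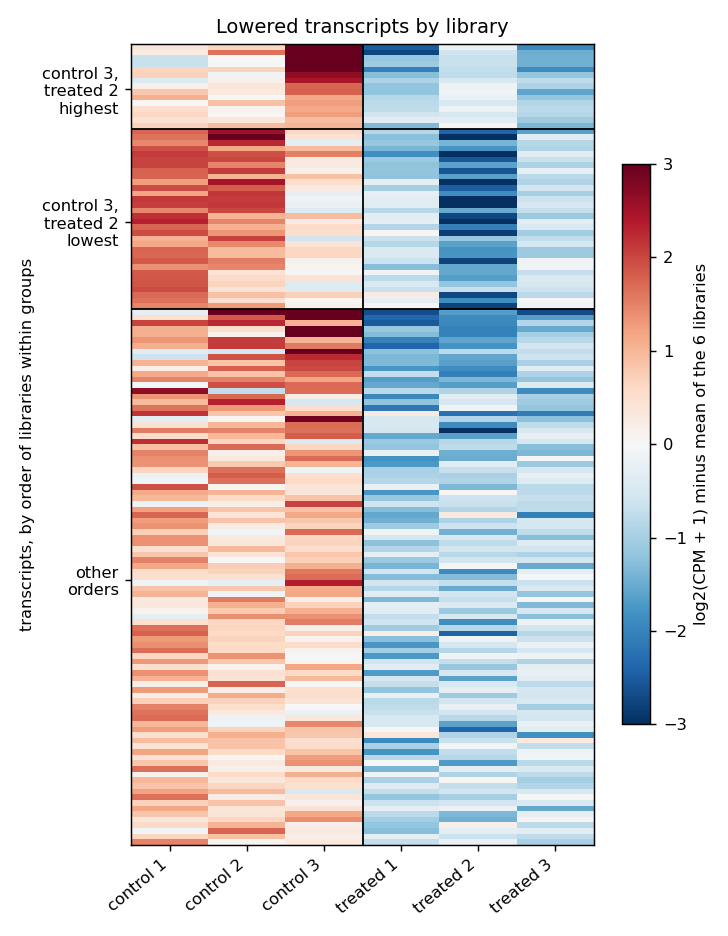
Level of the 142 lowered transcripts (rows) in the 6 libraries (columns), as log2(CPM + 1) minus the mean of the 6 libraries, in 3 blocks by the order of the libraries within groups. In the upper block of 15 transcripts control 3 is the reddest column, in the middle block of 32 it is the palest control and amidosulfuron 2 (treated 2) the bluest column, and the lower block holds the other 95.

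Where a gene had several tabulated transcripts, the lowered one did not always stand for the gene. Of the 103 matched genes, 20 had 2 or 3 lowered transcripts, 43 transcripts in all, and in 14 of these genes they came from more than 1 component. Of the 26 pairs of lowered transcripts within a gene, 3 differed by under 10% in count in every library. When all tabulated counts of a gene were summed, 74 of the 103 genes met the same conditions, where 0.629% of all 13040 summed genes did. Each sum includes the lowered transcripts themselves, so nothing is read from this comparison. The 74 genes were 64 of the 70 genes with no other transcript past the filter and 10 of the 33 genes with such transcripts. In the 70 genes any further tabulated transcript had low counts, and transcripts beyond the tabulated ones were not seen. The ratio of the summed counts had a median of 3.70, was at least 2 for 93 genes and under 1.5 for 6.

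The 66 other transcripts of these genes past the filter mostly differed in the same direction. The control mean was higher in 60 of them (90.9%), against 54.9% of all transcripts past the filter, with a median ratio of 1.77 against 1.04. Transcripts of the same gene can share reads, so these values are not independent of the choice. A ratio of at least 3 was reached by 15 of the 66, against 1.67% of all transcripts. None had a treated mean at least 3 times the control mean. That held for 0.801% of all transcripts, too small a share for 66 transcripts to show a difference.

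At the other end, Brara.C04482 and Brara.A03422 had sums that hardly differed between groups. The transcript comp35542_c0_seq1 of Brara.C04482 had 8.62, 11.7 and 3.31 CPM in the controls and 0, 2.09 and 0.970 CPM after amidosulfuron, a ratio of 7.72. The gene's 2 more abundant transcripts both had a ratio of 0.91, and its sum was 58.0 CPM ± 21.3 in the controls and 55.9 CPM ± 10.3 after amidosulfuron (SD, n = 3). For Brara.A03422 the lowered transcript made up 6.24% of the gene's control sum, which was 99.8 CPM ± 9.37 in the controls and 97.9 CPM ± 9.88 after treatment (SD, n = 3). The sources do not say whether such transcripts come from the A or the C genome.

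**Figure D5:**
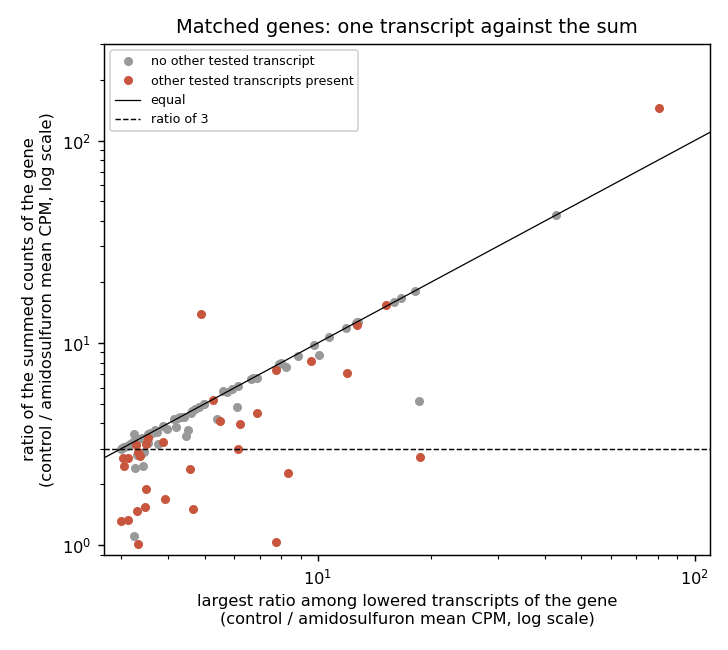
Ratio of control to amidosulfuron mean CPM of the summed counts of each of the 103 matched genes against the largest ratio among its lowered transcripts, on log axes, in grey for the 70 genes with no other transcript past the filter and in red for the 33 with such transcripts. Most grey points lie on the line of equality, most red points lie below it, down to a summed ratio of 1.02, and the highest point is Brara.B03426.

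Many deposited counts were not whole numbers, and the sources do not say why. In 109 of the 142 lowered transcripts at least 1 control count was not whole, and 33 (23.2%) had exactly whole counts in all 3 controls, against 14.4% of all transcripts past the filter. With counts summed per assembly component, 117 components met the conditions, and 110 of these held at least 1 of the 142 transcripts.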

How the data were processed

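As the labels and design text state, buds were profiled in 3 control and 3 amidosulfuron libraries. Per the design text, the authors used Bowtie2 2.1.0 with 1 mismatch allowed to place cleaned 36 nt reads on transcripts assembled before with Trinity; the transcripts had been matched to genes of Brassica rapa FPsc 1.3. The labels mention normalized cDNA without saying how it was made; its effect on the levels was not tested. The authors deposited an estimated count per transcript, not normalized, and an RPKM value that they scaled by transcript length and mapped reads. Treated values were deposited with 1 decimal, so low treated RPKM are coarse. Neither labels nor headers say how reads with several hits were treated, or whether tags came from a fixed site of each transcript. The tables end at 65535 transcripts and hold 30.1% to 34.1% of the reads behind the RPKM values, so transcripts beyond were not analysed here. Library totals in CPM therefore refer to the tabulated part. Lengths were recovered from count and RPKM (100% whole within 0.05 bp).

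Levels are CPM on column totals. Counts rounded to whole numbers were compared across all 24958 transcripts with edgeR 4.0.16 in R 4.3.3. The settings were TMM, glmQLFit, glmQLFTest, Benjamini-Hochberg adjustment and a threshold of 0.05. The procedure was tested on simulated counts drawn independently for each library, so that test does not cover patterns shared between libraries. DESeq2 1.42.0 and limma 3.58.1 were alternatives. Intervals are exact binomial (scipy 1.17.1), cover counting error only, and the labels mention no molecular identifiers. Figures used matplotlib 3.10.9. Named transcripts with at least 20 mean control counts were the 4 largest ratios and the 4 highest control RPKM (matched, 1 per gene). With the same minimum, those called by edgeR and the 2 most abundant unmatched ones were named. Without it, all lowered transcripts of the 4 genes with most of them were named, plus 2 on each side of the fold and floor. Other examples were chosen after their values were seen. The transcripts, lists and rules were chosen with earlier results of these data known. Lists of meiosis, tapetum, pollen wall, green tissue, floral organ and target pathway genes could not be matched to identifiers and were not tested.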

Additional observations from a re-analysis of the deposited data

How the results depend on the processing

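The number of transcripts that met the conditions (142) depended on the thresholds. It was 456 at a ratio of 2, 77 at a ratio of 4, 315 without the condition of no overlap, 86 with a treated floor of 2 CPM, 92 with an upper quartile of at least 20 counts, and 82 with library sizes taken from the RPKM denominators (63 of them among the 142; 48 in place of 74 genes by summed counts), which lower every CPM and also change the relative library sizes. Restricting to whole control counts left 33. Leaving out 1 library gave 150 (87 of the 142, without control 1) to 346 (without control 3), and leaving out control 3 and amidosulfuron 2 gave 573. TMM scaling gave 133, no count filter 160 and a floor of 0.5 CPM 162. The median log2 fold of the 142, treated over control, was −2.08, between −2.20 and −2.01 without any 1 library, −1.76 as a difference of log2(CPM + 1) and −1.57 as one of log2(RPKM + 1), which change the averaging as well as adding 1. Genes passing by summed counts numbered 56 to 71 without 1 library.

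Calls of edgeR (8 transcripts lower, 4 of them among the 142) became 13 and 9 without TMM, 15 and 9 with filterByExpr, 269 and 83 with no filter, 750 and 142 at the design text's thresholds, 116 and 60 with DESeq2, 66 and 23 without control 3 and amidosulfuron 2, and 0 and 0 with limma-voom (974 lower at an unadjusted p under 0.05). Without 1 library they ranged from 0 to 16 and from 0 to 8, with 0 and 0 without control 2 (1252 lower at an unadjusted p under 0.05). The labels do not say that equal replicate numbers pair samples, so the numbers were not taken as pairs. Deviations of equally numbered libraries correlated at 0.138, −0.112 and −0.396 over all transcripts, and no pairing is read from these values. With the replicate block the calls were 44 and 17. The cause of these changes was not tested. Leaving out control 3 and amidosulfuron 2 together, the restriction to whole counts and the component sums were chosen after seeing the data. Depth limits the low transcripts: a median of 19 treated counts stands behind each ratio.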
